A study of Rattus norvegicus with 9 samples.

Results

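Transcripts of 10 heat shock genes were followed in rat brain 1 day after a stroke, with and without astaxanthin given beforehand. The genes are Hspb1, Hspb8, Cryab, Hspa8, Hsp90aa1, Hsph1, Dnajb1, Bag3, Hspd1 and Hsf1, taken by symbol from a table of 22888 genes, and all 10 were found and passed the filter on low values. The rats were male Sprague-Dawley animals. In the astaxanthin group (libraries 1, 2 and 3) the middle cerebral artery was occluded on a single side, and astaxanthin, a carotenoid, had been given by gavage over the 7 days before at 45 mg/kg, the medium dose by the labels. In the model group (libraries 1, 3 and 4) the same artery was occluded without astaxanthin, and in the sham group (libraries 1, 3 and 5) the operation was a sham. The labels name the tissue as brain, with no region or side, and do not say whether a library stands for a separate animal, so the p-values below measure only the spread between these libraries.

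Heat shock proteins are chaperones that hold, refold or hand over damaged proteins. In stressed cells the transcription factor encoded by Hsf1 forms trimers and binds heat shock elements, which are repeats of GAA in alternating orientation, in front of chaperone genes. Small heat shock proteins bind unfolding proteins without ATP. The HSP70 and HSP90 machines refold them with ATP, helped by J-domain proteins, nucleotide exchange factors and other cochaperones. After cerebral ischemia in rodents, HSP27, the product of Hspb1, is known chiefly from reactive astrocytes. Hspd1 differs from the other 9 in that its protein, HSP60, works in the mitochondrial matrix and not in the cytosol.

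Hsf1 is known to act at promoters, and 7 of the 10 genes had a window in the RefSeq table of the GRCr8 assembly (250 bases before the start site and 50 from it on). Printed here are the windows of the 3 genes that passed the test in the model group (Hspb1, Hspb8 and Bag3) and of 2 genes that did not (Hsph1 and Hspa8), 5′ to 3′ on the strand of the gene. Coordinates are those of GRCr8, and capitals mark matches to the heat shock element.

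Hspb1, chr12:26432252-26432551, minus strand: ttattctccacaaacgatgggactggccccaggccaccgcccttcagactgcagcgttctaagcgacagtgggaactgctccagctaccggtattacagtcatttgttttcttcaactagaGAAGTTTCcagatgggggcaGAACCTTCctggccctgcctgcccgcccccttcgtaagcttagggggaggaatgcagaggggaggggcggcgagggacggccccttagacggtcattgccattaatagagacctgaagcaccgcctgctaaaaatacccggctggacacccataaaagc

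Hspb8, chr12:45837058-45837357, plus strand: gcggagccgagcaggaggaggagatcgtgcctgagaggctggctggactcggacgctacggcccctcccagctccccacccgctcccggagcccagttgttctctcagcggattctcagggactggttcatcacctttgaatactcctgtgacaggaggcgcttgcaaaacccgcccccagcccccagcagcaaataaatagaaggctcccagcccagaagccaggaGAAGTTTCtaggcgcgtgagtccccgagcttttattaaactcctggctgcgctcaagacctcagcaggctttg

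Bag3, chr1:192533210-192533509, plus strand: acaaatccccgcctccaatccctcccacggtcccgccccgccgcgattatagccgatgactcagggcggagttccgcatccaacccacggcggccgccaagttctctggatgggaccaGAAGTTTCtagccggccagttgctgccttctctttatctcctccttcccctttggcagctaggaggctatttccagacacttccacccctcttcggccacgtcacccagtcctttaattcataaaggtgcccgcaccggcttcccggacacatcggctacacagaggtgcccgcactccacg

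Hsph1, chr12:10427118-10427417, plus strand: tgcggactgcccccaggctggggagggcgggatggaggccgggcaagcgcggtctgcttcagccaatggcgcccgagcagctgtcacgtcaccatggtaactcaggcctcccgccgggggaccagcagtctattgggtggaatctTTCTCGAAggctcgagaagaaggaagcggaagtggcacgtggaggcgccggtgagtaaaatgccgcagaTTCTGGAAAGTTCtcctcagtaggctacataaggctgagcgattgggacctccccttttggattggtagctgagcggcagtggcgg

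Hspa8, chr8:50080264-50080563, plus strand: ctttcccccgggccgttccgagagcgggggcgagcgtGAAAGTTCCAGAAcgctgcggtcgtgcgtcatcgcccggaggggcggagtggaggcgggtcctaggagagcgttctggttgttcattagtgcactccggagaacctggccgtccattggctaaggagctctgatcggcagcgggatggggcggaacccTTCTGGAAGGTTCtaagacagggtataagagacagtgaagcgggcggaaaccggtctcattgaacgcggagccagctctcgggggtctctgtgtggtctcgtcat

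The element was searched on both strands as GAANNTTC or TTCNNGAA, each of which is its own reverse complement, and in 3 units as GAANNTTC followed by NN and GAA or TTCNNGAA followed by NN and TTC, which contain both shorter forms and are each other's reverse complement. All 7 windows held a match with 2 units, against 15.9% of all 33469 RefSeq windows of this length. A match with 3 units stood in the windows of Hspa8 (2 matches), Hspd1 (2) and Hsph1 (1), that is in 3 of 7, against 0.798% of all windows. In Hspa8 the nearer of these began at base -55 from the start site and read TTCTGGAAGGTTC, and in Hsph1 it began at base -36 and read TTCTGGAAAGTTC. The windows of Hspb1, Hspb8, Bag3 and Dnajb1 held matches with 2 units only. Hspb8 and Bag3 had a single match each, and both read GAAGTTTC, as did the one at base -129 of Hspb1. By this search, which took exact matches only, the windows of the 3 genes that rose held the shorter form alone. The same was true of Dnajb1, which did not pass. Sites with a base that differs were not counted, and a link between the form and the rise was not tested. A match is a description of the letters and not a binding site.

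**Figure D1:**
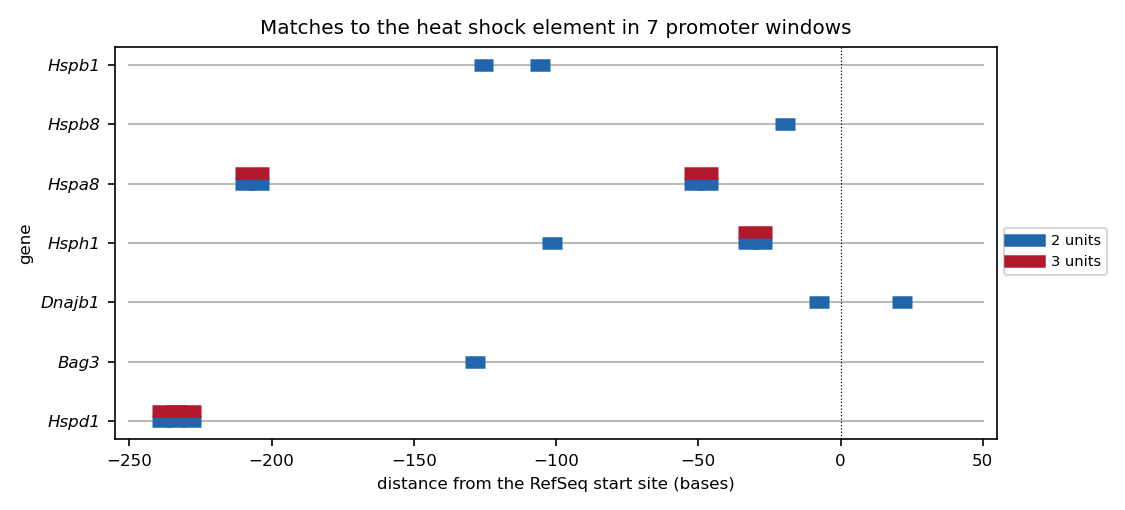
Matches to the heat shock element in the promoter windows of 7 genes, by distance from the RefSeq start site in bases (blue, 2 units; red, 3 units). Red bars stand in Hspa8, Hsph1 and Hspd1, and the windows of Hspb1, Hspb8, Dnajb1 and Bag3 hold blue bars alone.

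Each library held between 52268061 and 76311125 recovered reads, and values are given as normalized reads, that is reads divided by a factor for each library. Some libraries stood apart in makeup. Model 3 had the highest summed level of oligodendrocyte markers (9 genes), at 1842169 normalized reads against 228369 to 1138506 in the other libraries. It was also the highest in endothelial markers (6 genes measured), with 57694 against 8977 to 16728, and in neutrophil markers (7 genes), with 13998 against 212.5 to 3142, and its neuron markers (7 genes) summed to 85173 against 214129 to 322257. The neutrophil sum of 3142 was that of astaxanthin 1 and came mostly from 1 listed gene, Ly6g6e. That gene had 2746 normalized reads there, against 21.6 to 111.7 in the other libraries. Astaxanthin 1 held cerebellar neuron markers (6 genes measured) at 191203 against 5130 to 18722, and its choroid plexus markers (7 genes) at 192109. Sham 5 was next in choroid plexus markers at 115037, against 462.0 to 15288 in the remaining libraries, and held 108678 normalized reads of Ttr, the transthyretin gene. No list had a marker at 0 in every library. Whether these differences bear on the heat shock genes was not tested, and some of the results below, not all, are also given without model 3 and astaxanthin 1. Without sham 5 the model group's log2 fold changes over sham were 6.37 for Hspb1 (limma adjusted p = 0.0207) and 2.61 for Hspb8 (limma adjusted p = 0.0495), and Bag3 passed with a limma adjusted p of 0.0496.

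One day after the occlusion, Hspb1, Hspb8 and Bag3 rose in the model group over sham, and no gene of the 10 fell. All 10 log2 fold changes lay above 0, with a median of 0.65 against 0.02 over all genes tested. By limma's test on log2(value + 1), adjusted over the 17770 genes tested with a threshold of 0.05, 3 of 10 genes were called higher, against a background of 3.45% of all genes called higher in this comparison. In 8 of the 10 every model library lay above every sham library, against a background of 19% of all genes; Hspa8 and Dnajb1 were the exceptions. The share of genes above 0 was 50.9% in the background. The tissue is bulk brain, so more cells of a type and more RNA per cell cannot be told apart.

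Hspb1 (chromosome 12, 20794028 to 20795743; coordinates here are those of the deposited table, build rn7) encodes the small heat shock protein HSP27. It stood at 19289, 26395 and 13478 normalized reads in model 1, 3 and 4, against 261.5, 201.4 and 474.1 in sham 1, 3 and 5. The lowest model library was thus far above the highest sham library, and Hspb1 ranked 3 of 10 per kilobase of exon in model and 10 of 10 in sham. Its log2 fold change was 6.02 ± 0.73 (SE), or 64.8-fold with a 95% interval of 20.6 to 204 (limma adjusted p = 0.00686). The adjusted p stayed under the threshold whichever single library was left out, with log2 fold changes between 5.75 and 6.37.

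Some markers of other cell types also stood apart between model and sham, in both directions. Over all genes tested, 19% were higher in every model library than in every sham library and 16.6% were lower. The marker counts here and in the next paragraph are to be read beside these shares. Of the 7 astrocyte markers, 1 was higher in every model library, 1 was lower and 5 overlapped. The higher one was Gfap, the filament protein of reactive astrocytes, with 200461, 99814 and 201186 normalized reads in model 1, 3 and 4, against 22916, 13459 and 39303 in sham 1, 3 and 5. The lower one was Gjb6, a connexin, with 518.6, 2304 and 1135 in model against 3620, 4004 and 5086 in sham. Summed with Gfap, the astrocyte markers ran from 211658 to 288517 in model and from 77260 to 161752 in sham, whereas the 6 others alone overlapped, at 67236, 111844 and 87331 in model against 95549, 63801 and 122449 in sham. Within the model group, model 3 had the highest Hspb1 and the lowest Gfap. In the astaxanthin group both genes were lowest in astaxanthin 1 and highest in astaxanthin 3. Gfap there had 45886, 175495 and 197760 normalized reads in astaxanthin 1, 2 and 3. Within the sham group both were lowest in sham 3 and highest in sham 5. A link between Gfap and Hspb1 was not tested.

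Of the 6 endothelial markers measured, Pecam1, Cdh5, Flt1 and Kdr were higher in every model library, while Slco1a4, a transporter, was lower, with 472.0, 1975 and 644.0 normalized reads in model 1, 3 and 4 against 2469, 2964 and 2576 in sham 1, 3 and 5. Their sum ran from 16000 to 57694 in model and from 8977 to 9939 in sham. Neutrophil markers summed to 741.8 to 13998 in model and 212.5 to 301.5 in sham, with 4 of 7 higher in every model library and none lower, and Cxcr2, a receptor of neutrophils, was at 0 in all 3 sham libraries. Markers of smooth muscle and pericytes summed to 8510 to 28576 in model and 6245 to 8120 in sham, with 2 of 7 higher (Pdgfrb and Des) and 5 overlapping. Of the 7 neuron markers 3 were lower in every model library (Syt1, Nefl and Stmn2) and none was higher, and of the 7 markers of microglia and macrophages Cd68 and Itgam were higher while P2ry12 and Tmem119 were lower. The part of these cell types in the rise of Hspb1, Hspb8 and Bag3 was not tested.

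Hspb8 (chromosome 12, 40176532 to 40191185) encodes a small heat shock protein that works with Bag3 in directing damaged proteins to autophagy. The model libraries 1, 3 and 4 held 4308, 9012 and 5223 normalized reads, against 967.0, 961.1 and 1353 in sham 1, 3 and 5. The groups did not overlap, and model 3 was the highest. The log2 fold change was 2.44 ± 0.39 (SE), a 5.44-fold difference (limma adjusted p = 0.0176). The call was lost without sham 1 (log2 fold change 2.36, limma adjusted p = 0.0825) and without sham 3 (2.36, limma adjusted p = 0.0806).

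Bag3 (chromosome 1, 183102871 to 183126858), the cochaperone that links HSP70 to small heat shock proteins and to autophagy, followed closely in size. Its levels were 3162, 7108 and 5264 normalized reads in model 1, 3 and 4, against 1013, 606.6 and 1312 in sham 1, 3 and 5. Again no model library reached down to the sham range. The log2 fold change was 2.40 ± 0.42 (SE), or 5.27-fold (limma adjusted p = 0.0221). It missed the threshold without model 3 (2.13, limma adjusted p = 0.0504), without sham 1 (2.46, limma adjusted p = 0.0872) and without sham 3 (2.09, limma adjusted p = 0.0882). Without both model 3 and astaxanthin 1, Bag3 (2.13, limma adjusted p = 0.0133), Hspb8 (2.13, limma adjusted p = 0.00292) and Hspb1 (5.78, limma adjusted p = 0.000563) all passed, 3 of 10 against a background of 8.7%.

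Cryab (chromosome 8, 51093441 to 51099157), the small heat shock protein αB-crystallin known from oligodendrocytes and astrocytes, did not pass. It had 7999, 16845 and 4783 normalized reads in model 1, 3 and 4, against 3954, 1914 and 4420 in sham 1, 3 and 5. The groups touched without overlapping, since model 4 lay only a little above sham 5, and model 3 stood at the top. The log2 fold change was 1.42 ± 0.50 (SE), with a 95% interval of 0.28 to 2.57 (limma adjusted p = 0.135), and it was 0.94 without model 3 and astaxanthin 1 (limma adjusted p = 0.149). Model 3 also had the highest summed oligodendrocyte markers, whose ranges overlapped between the groups: 228369 to 1842169 in model and 452392 to 1138506 in sham. Their part in the Cryab values was not tested. DESeq2 on the recovered reads did call Cryab (log2 fold change 1.52, adjusted p = 0.0256), which makes 4 of the 10 genes called higher there against a background of 10.5%.

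Hspa8, Hsph1 and Dnajb1, which work in the HSP70 cycle as Bag3 does, did not pass the test. Hspa8 (chromosome 8, 41183264 to 41187259), the constitutive HSP70 called HSC70, held 133413, 135655 and 125923 normalized reads in model 1, 3 and 4, against 136190, 122294 and 118295 in sham 1, 3 and 5. These ranges overlapped, and the log2 fold change was 0.07 with a 95% interval of -0.35 to 0.49 (limma adjusted p = 0.848). Hsph1 (chromosome 12, 5390922 to 5410224), an HSP110 that exchanges the nucleotide of HSP70, had 50439, 43806 and 51590 normalized reads in model, against 31819, 28271 and 24222 in sham. Every model library was above every sham library, but the log2 fold change of 0.80 ± 0.47 (SE) did not pass (limma adjusted p = 0.337). All 3 groups share the estimate of the spread, and the standard deviation of Hsph1 was 27953 normalized reads in astaxanthin, 4201 in model and 3801 in sham. With single libraries left out, Hsph1 passed in 0 of 9 fits, with a lowest limma adjusted p of 0.0840.

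Dnajb1 (chromosome 19, 24522717 to 24526458), the J-domain protein HSP40 that starts the ATP cycle of HSP70, had 5058, 10336 and 5605 normalized reads in model 1, 3 and 4, against 5536, 4856 and 4726 in sham 1, 3 and 5. Model 3 stood well above the sham range, model 4 just above it and model 1 inside it. Without model 3 and astaxanthin 1 the log2 fold change was 0.08, against 0.40 ± 0.35 (SE) with all libraries (limma adjusted p = 0.532).

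Hsp90aa1 (chromosome 6, 129702383 to 129707268), the stress-inducible cytosolic HSP90, did not pass either. It stood at 106874, 108084 and 105826 normalized reads in model, against 88980, 83166 and 82377 in sham. The groups were apart with little spread within either, and the log2 fold change was 0.33 ± 0.20 (SE; limma adjusted p = 0.344). Its constitutive relative Hsp90ab1 averaged 94021 ± 9877 normalized reads in model and 92446 ± 3520 in sham (SD, n = 3 each), so that Hsp90aa1 came to 114% ± 10.4 of Hsp90ab1 in model and 91.9% ± 5.2 in sham (SD, n = 3 each). The ranges of this ratio, 103% to 122% in model and 86.4% to 96.8% in sham, did not overlap. How many ratios of other gene pairs separate in this way was not counted.

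Hspd1 (chromosome 9, 56579201 to 56589662), the mitochondrial chaperonin HSP60, had 15117, 17597 and 15823 normalized reads in model, against 11908, 11010 and 11288 in sham. All model libraries were above all sham libraries, and the log2 fold change was 0.50 ± 0.20 (SE), with a 95% interval of 0.06 to 0.95 (limma adjusted p = 0.164). Its partner Hspe1, the cochaperonin HSP10, lies 126 bases away, and their promoter windows share the same element. The ratio of Hspd1 to Hspe1 was 2.93 ± 0.56 in model and 3.42 ± 0.16 in sham (SD, n = 3 each), with overlapping ranges. Hsf1 (chromosome 7, 108196056 to 108223011) had 2983, 2504 and 2643 normalized reads in model, against 2163, 1951 and 2131 in sham. Here too the groups did not overlap, and the log2 fold change was 0.38 ± 0.23 (SE; limma adjusted p = 0.355). Hsf1 overlaps the gene Dgat1 by 4488 bases and Cryab overlaps Hspb2 by 1093 bases. Whether strand was used in counting is not stated, so the partners' reads in the shared stretches cannot be told apart.

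**Figure D2:**
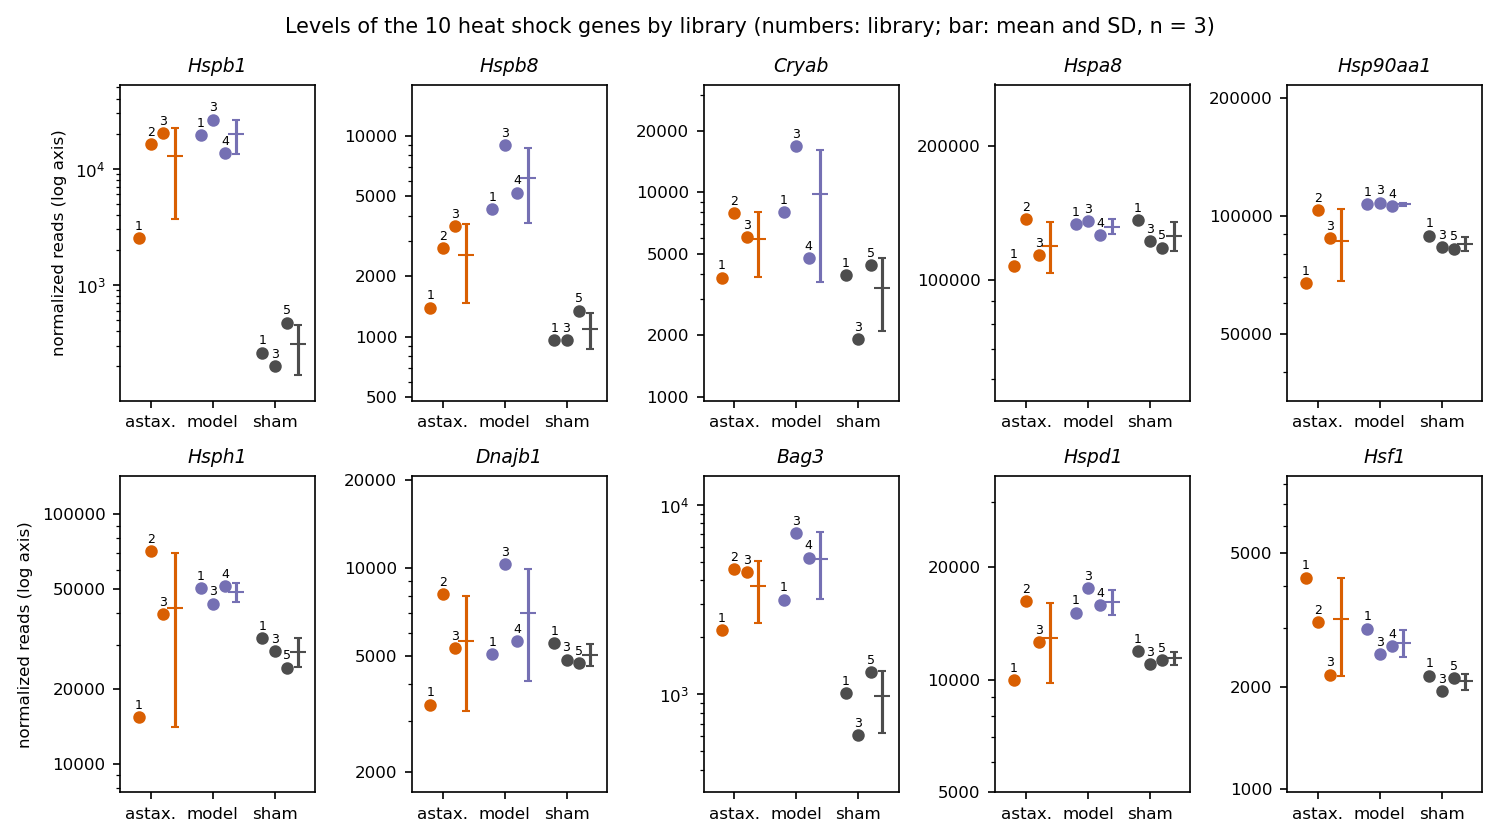
Normalized reads of the 10 genes in each library on log axes (orange, astaxanthin; purple, model; grey, sham; numbers are library numbers; horizontal bars are means with SD, n = 3). The 3 model libraries of Hspb1, between 13478 and 26395, lie far above the 3 sham libraries, between 201.4 and 474.1, while Hspa8 overlaps across all groups.

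Set against the untreated model, astaxanthin gave no called difference in any of the 10 genes. In sign the genes were alike: 9 of 10 log2 fold changes were below 0, with a median of -0.41 against -0.01 over all genes tested, and Hsf1 was the exception. Over all genes 49.1% were above 0. The limma test called 0 of 17770 genes in this comparison (0% in each direction), with 1579 genes at an unadjusted p under 0.05, which is 8.89%, and 1 of the 10 heat shock genes among them. DESeq2 called 206 genes and edgeR 0, none of the 10 heat shock genes in either. In 2 of the 10 genes every astaxanthin library lay below every model library, against a background of 7.24%.

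Those 2 genes were Hspb8 and Hsp90aa1. Hspb8 had 1396, 2766 and 3546 normalized reads in astaxanthin 1, 2 and 3, against 4308, 9012 and 5223 in model 1, 3 and 4. The highest astaxanthin library was below the lowest model library, with a log2 fold change of -1.30 ± 0.39 (SE), a 95% interval of -2.18 to -0.42, an unadjusted limma p of 0.00897 and a limma adjusted p of 0.548. Without model 3 and astaxanthin 1 the log2 fold change was -0.60 (limma adjusted p = 0.648). Hsp90aa1 had 67440, 103271 and 87655 normalized reads in the astaxanthin libraries, against 106874, 108084 and 105826 in the model libraries. Astaxanthin 2 came close to the model range and astaxanthin 1 lay lowest, and the log2 fold change was -0.33 ± 0.20 (SE; limma adjusted p = 0.602).

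The other 8 genes overlapped between the astaxanthin and model groups. Hspb1 had 2527, 16210 and 20062 normalized reads in astaxanthin 1, 2 and 3, against 19289, 26395 and 13478 in model. Astaxanthin 2 and 3 lay inside the model range and astaxanthin 1 far below it. The log2 fold change of -1.02 had a 95% interval of -2.68 to 0.64, which spans 0 (limma adjusted p = 0.638). Bag3, with 2184, 4579 and 4423 normalized reads in astaxanthin 1, 2 and 3, against 3162, 7108 and 5264 in model, differed by a log2 fold change of -0.47 (95% interval -1.42 to 0.48, limma adjusted p = 0.700).

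Cryab had 3828, 7937 and 6048 normalized reads in astaxanthin 1, 2 and 3, against 7999, 16845 and 4783 in model 1, 3 and 4. Astaxanthin 2 and 3 lay within the model range, and the log2 fold change was -0.60 ± 0.50 (SE; limma adjusted p = 0.685). Hspa8 had 107388, 136984 and 113795 normalized reads in astaxanthin, against 133413, 135655 and 125923 in model, and Dnajb1 had 3407, 8158 and 5303, against 5058, 10336 and 5605. In both genes astaxanthin 1 was the lowest of all libraries, and astaxanthin 2 was above every model library in Hspa8 and inside the model range in Dnajb1. Their log2 fold changes were -0.15 (95% interval -0.57 to 0.27) for Hspa8 and -0.33 (95% interval -1.14 to 0.48) for Dnajb1. Hspd1 had 9971, 16249 and 12634 normalized reads in astaxanthin, against 15117, 17597 and 15823 in model, with a log2 fold change of -0.35 ± 0.20 (SE; limma adjusted p = 0.594). Without model 3 and astaxanthin 1 the signs of 6 genes turned: the log2 fold change was then 0.16 for Hspb1, 0.16 for Cryab, 0.06 for Hsph1, 0.30 for Dnajb1, 0.14 for Bag3 and -0.11 for Hsf1. The agreement in sign therefore rested on these libraries.

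Against sham, the astaxanthin group still showed a rise of Hspb1. Its 2527, 16210 and 20062 normalized reads in astaxanthin 1, 2 and 3 stood against 261.5, 201.4 and 474.1 in sham, with even the lowest astaxanthin library above all sham libraries. The log2 fold change was 5.00 ± 0.73 (SE), or 31.9-fold with a 95% interval of 10.1 to 100.6 (limma adjusted p = 0.0438). This was 1 gene of 10 called higher, against a background of 0.236%, and none was called lower, against 0.0394%. Of the 10 log2 fold changes 9 lay above 0, against 53.3% of all genes. In 4 of the 10 genes (Hspb1, Hspb8, Bag3 and Hsf1) every astaxanthin library lay above every sham library, against a background of 13%.

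The Hspb1 call sat close to the threshold. Leaving out astaxanthin 1 moved the log2 fold change to 5.94 (limma adjusted p = 0.00138), and the call also held without model 3 (limma adjusted p = 0.0456). It was lost without astaxanthin 2 (4.60, limma adjusted p = 0.191), astaxanthin 3 (4.45, limma adjusted p = 0.125), sham 1 (4.92, limma adjusted p = 0.202), sham 3 (4.73, limma adjusted p = 0.203) or sham 5 (5.35, limma adjusted p = 0.0944). Leaving out model 1 (limma adjusted p = 0.0782) or model 4 (limma adjusted p = 0.0768) also lost it, with the log2 fold change as before, since model libraries enter this comparison only through the shared spread. edgeR on the recovered reads gave an adjusted p of 0.0720, and a limma fit of these groups alone an adjusted p of 0.102.

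Bag3 had 2184, 4579 and 4423 normalized reads in astaxanthin 1, 2 and 3, against 1013, 606.6 and 1312 in sham 1, 3 and 5. The groups were apart, and the log2 fold change of 1.92 ± 0.42 (SE) had a limma adjusted p of 0.137, while DESeq2 called it (adjusted p = 0.00098), which with Hspb1 makes 2 of 10 against a background of 2.94%. Hspb8 in astaxanthin, given above, was also above its 967.0, 961.1 and 1353 normalized reads in sham in every library, with a log2 fold change of 1.15 ± 0.39 (SE; limma adjusted p = 0.303). Without model 3 and astaxanthin 1, Hspb8 (1.54, limma adjusted p = 0.0140) and Bag3 (2.27, limma adjusted p = 0.0204) joined Hspb1, which makes 3 of 10 called higher against a background of 2.93%. Hsf1 stood at 4226, 3124 and 2181 normalized reads in the astaxanthin libraries, against 2163, 1951 and 2131 in sham. Astaxanthin 3 was barely above sham 1, and the log2 fold change of 0.56 ± 0.23 (SE) did not pass (limma adjusted p = 0.383). The 3 comparisons share their groups in pairs and are not independent of each other.

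**Figure D3:**
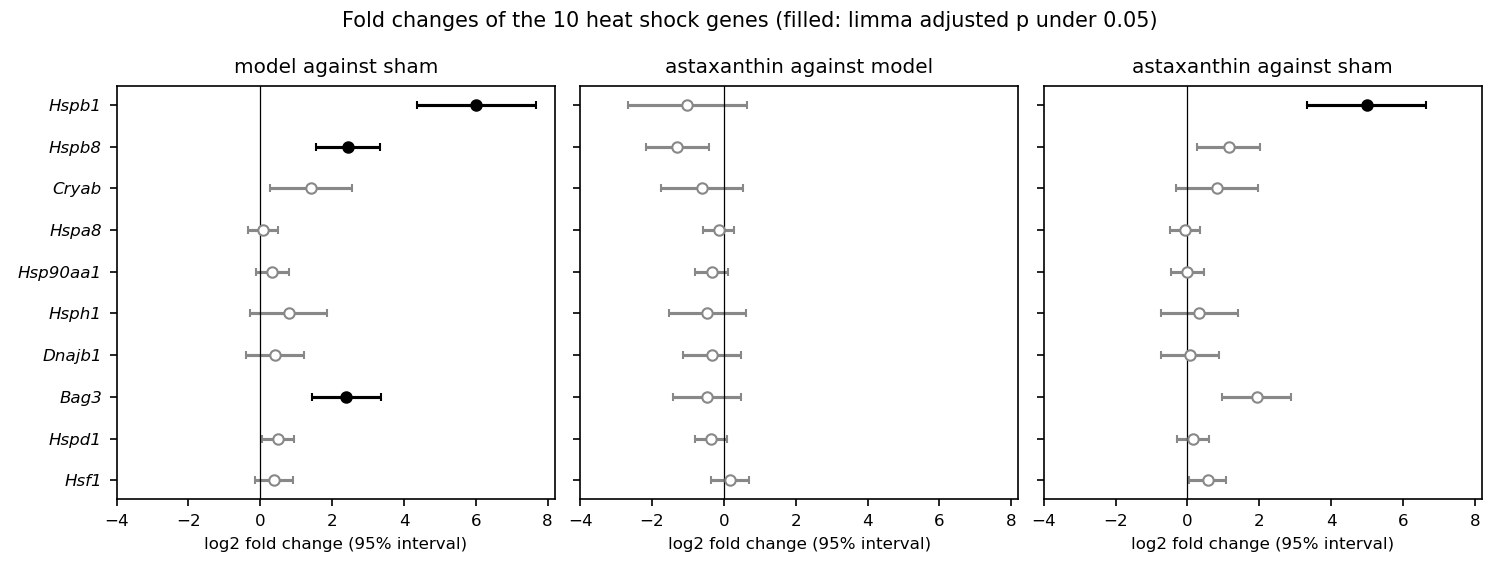
Log2 fold changes of the 10 genes with 95% intervals in the 3 comparisons (filled points, limma adjusted p under 0.05). Filled points are Hspb1, Hspb8 and Bag3 in model against sham and Hspb1 in astaxanthin against sham; the middle panel, astaxanthin against model, has none.

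Among single libraries, astaxanthin 1 and model 3 set much of the spread. Astaxanthin 1 was the lowest of its group in 9 of the 10 genes and the lowest of all 9 libraries in 5, while Hsf1 was highest in it. Model 3 was the highest of all libraries in 7 of the 10 genes. Relative to the sham mean on the log2(value + 1) scale, all 10 genes were higher in each model library and in astaxanthin 2, 9 were higher in astaxanthin 3 and 5 in astaxanthin 1. Hspb1 stood 3.11 above the sham mean in astaxanthin 1, against 5.79 and 6.10 in astaxanthin 2 and 3 and 5.52 to 6.49 in the model libraries. Hsph1 went to both sides within the astaxanthin group, at 1.35 above the sham mean in astaxanthin 2 and at -0.86 in astaxanthin 1. Its normalized reads there were 71102 and 15345, the highest and the lowest values of the gene in any library.

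**Figure D4:**
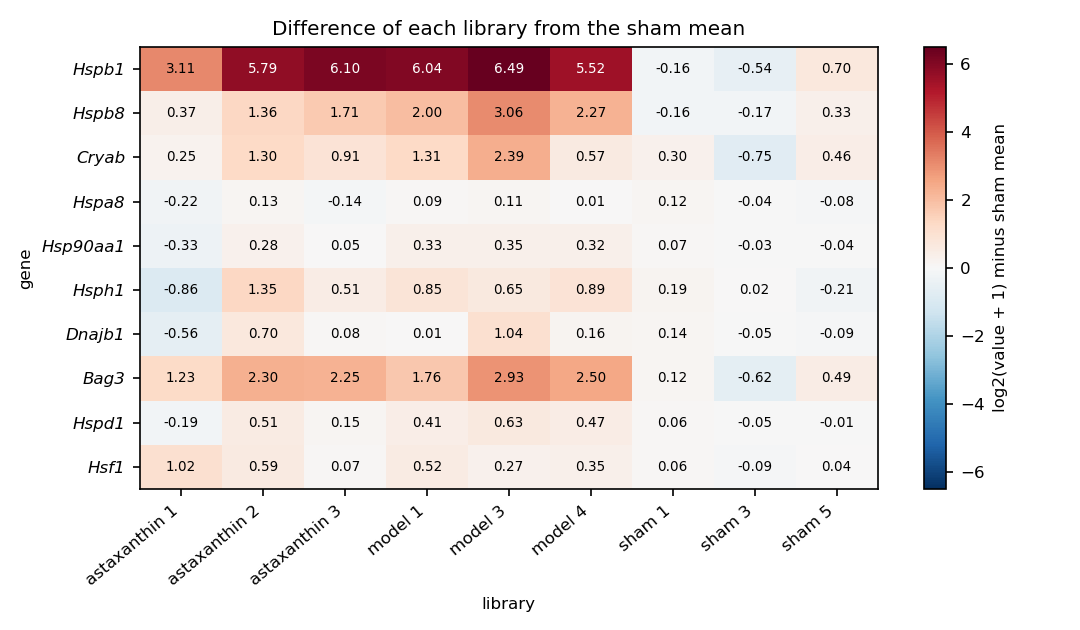
Difference of each library from the mean of the sham libraries, in log2(value + 1), for the 10 genes (red, higher; blue, lower). The row of Hspb1 lies between 3.11 and 6.49 in the libraries with an occlusion, and the column of astaxanthin 1 holds 5 values below 0.

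Scaled by exon length, levels can be set side by side between genes. Hspa8 was the most abundant per kilobase, at 50550 ± 6394 normalized reads per kilobase in astaxanthin, 55660 ± 2177 in model and 53591 ± 3964 in sham (SD, n = 3 each), and Hsp90aa1 was next in each group. Hspb1 ranked 3 of 10 in astaxanthin and in model, at 13744 ± 9793 and 20957 ± 6875 normalized reads per kilobase, and last in sham, at 331.9 ± 152.3 (SD, n = 3 each). It made up 10.8% of the summed level of the 10 genes in astaxanthin, 13.3% in model and 0.311% in sham. In normalized reads without this scaling, its ratio to Cryab, the other abundant small heat shock protein here, was 201% ± 133 in astaxanthin, 227% ± 63.8 in model and 9.29% ± 2.32 in sham (SD, n = 3 each). For Hspa8, Hspd1 and Hsp90aa1, RefSeq lists 33, 20 and 16 pseudogenes named after them, so reads may be divided with near-identical copies and their levels are uncertain.

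Bag3 and Hspb8, whose proteins form a complex, had overlapping ratios in model and sham and higher ones in astaxanthin. These ratios are of normalized reads not scaled by exon length, so they compare libraries and not the levels of the genes. Bag3 came to 156%, 166% and 125% of Hspb8 in astaxanthin 1, 2 and 3, against 73.4%, 78.9% and 101% in model 1, 3 and 4 and 105%, 63.1% and 96.9% in sham 1, 3 and 5. All 3 astaxanthin libraries lay above all others. The ratio was set up with the values known, so no test is given. Against model or sham alone, an exact permutation test of 3 libraries against 3 could not go below p = 0.1. It was not counted how many ratios of other gene pairs set the astaxanthin libraries apart. On the same unscaled reads, Hsph1 came to 33.7% ± 18.8 of Hspa8 in astaxanthin, 37.0% ± 4.39 in model and 22.3% ± 1.6 in sham (SD, n = 3 each).

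Of the 10 genes, 7 had 1 transcript in the deposited transcript table, and Hsph1, Hspa8 and Hsf1 had several. Of the Hsph1 reads, Hsph1-201 (18 exons) took 95.5%, 53.6% and 98.7% in astaxanthin 1, 2 and 3 and 95.8%, 34.1% and 82.0% in model 1, 3 and 4, against 98.2%, 98.5% and 98.2% in sham 1, 3 and 5. The libraries with an occlusion thus ran from just above the sham shares, in astaxanthin 3, to a minority, in model 3. The reads of astaxanthin 2 and model 3 were divided instead among Hsph1-203 (19.8% and 34.7%) and Hsph1-204 (26.6% and 31.1%), each with 17 exons. Hsph1-204 reached 10.9% in model 4 and at most 1.06% in the other libraries. These shares are estimates by the authors' software, and no test was made.

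For Hspa8, the transcript Hspa8-201 (8 exons) took 67.5% ± 4.77 of the reads in astaxanthin, 68.6% ± 5.14 in model and 59.0% ± 0.41 in sham (SD, n = 3 each). Its lowest shares were 62.4% in astaxanthin and 63.2% in model, above the highest in sham, 59.4%. Hspa8-202 (9 exons) had the complementary pattern, at 24.9% ± 5.25 in astaxanthin, 25.4% ± 6.4 in model and 34.6% ± 1.78 in sham (SD, n = 3 each). Thus the total of Hspa8 overlapped between the groups while the shares of these transcripts did not overlap with sham. How many transcripts of other genes separate in this way was not counted. The shares are software estimates, and the 33 pseudogenes named after Hspa8 make them uncertain too. For Hsf1, Hsf1-201 took 74.7% ± 6.59 in astaxanthin, 72.0% ± 1.45 in model and 71.5% ± 8.53 in sham (SD, n = 3 each), with overlapping ranges.

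**Figure D5:**
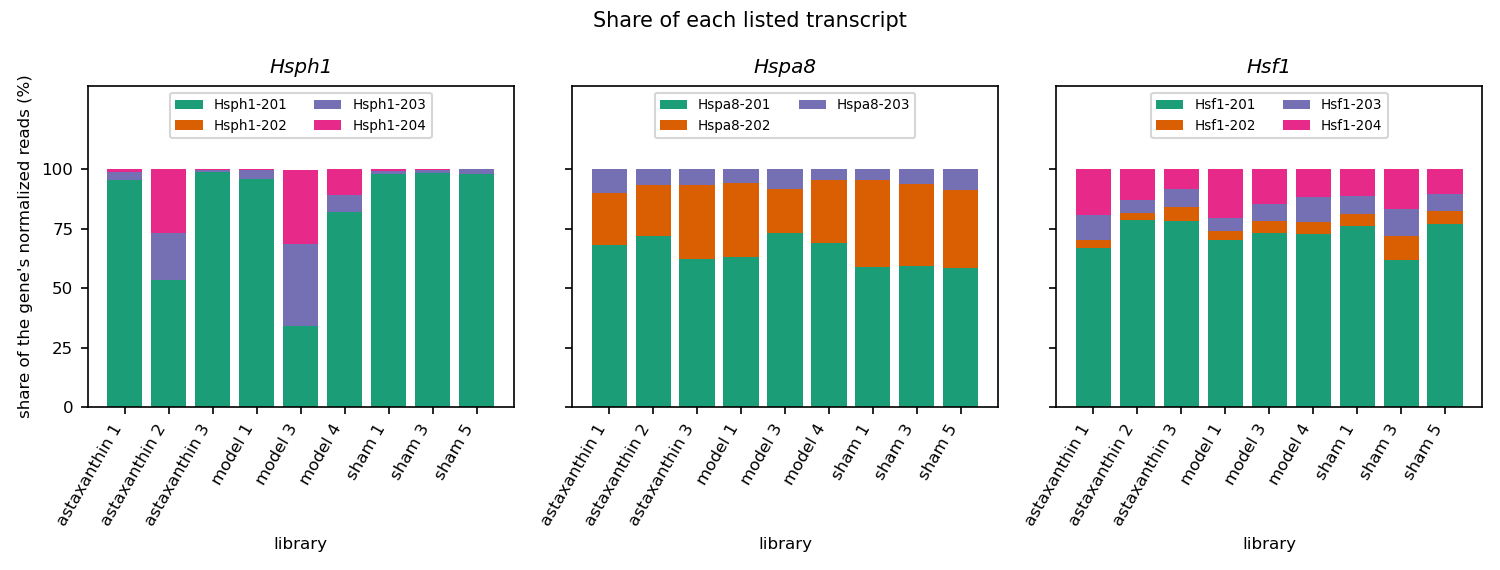
Share in percent of the normalized reads of Hsph1, Hspa8 and Hsf1 assigned to each listed transcript, by library. Hsph1-201 takes 34.1% in model 3 and 53.6% in astaxanthin 2 against 98.2% to 98.5% in the sham libraries, and Hspa8-201 takes 62.4% or more in the astaxanthin and model libraries against 58.6% to 59.4% in sham.

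Among 64 other chaperone genes measured, 2 rose in the model group over sham and none fell, against backgrounds of 3.45% and 1.32%. Serpinh1, the collagen chaperone HSP47 of the endoplasmic reticulum, had 13643, 18436 and 8295 normalized reads in model 1, 3 and 4, against 3042, 2154 and 3754 in sham 1, 3 and 5. The groups were well apart, with a log2 fold change of 2.13 ± 0.37 (SE; limma adjusted p = 0.0221). Atf5, a transcription factor of the mitochondrial stress response, had 6453, 6668 and 4390 normalized reads in model, against 3111, 3081 and 3134 in sham. The sham libraries were nearly equal, and the log2 fold change was 0.88 ± 0.18 (SE; limma adjusted p = 0.0355).

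Serpinh1 lost its call without model 1 (limma adjusted p = 0.0757), sham 1 (limma adjusted p = 0.0910), sham 3 (limma adjusted p = 0.0889) or sham 5 (limma adjusted p = 0.0555), with log2 fold changes of 1.87 to 2.45 over all such fits. Atf5 lost it in all such fits but those without astaxanthin 1 or model 4, with limma adjusted p between 0.0158 and 0.130 and log2 fold changes of 0.78 to 1.08. In the astaxanthin group Serpinh1 averaged 5194 ± 2153 normalized reads and Atf5 3480 ± 318, against 13458 ± 5073 and 5837 ± 1258 in model (SD, n = 3 each). Neither passed in astaxanthin against model by limma (log2 fold change -1.37 and -0.73, limma adjusted p = 0.548 for both), nor did any other of the 64, of which edgeR called 0. By limma 5 of the 64 had an unadjusted p under 0.05, against a background of 8.89%. DESeq2 called Atf5 lower there (adjusted p = 0.0279), against a background of 0.827% of genes called lower.

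In model against sham, more of the 64 were called by DESeq2, which was run on the recovered reads. It called 10 higher, among them Serpinh1, Atf5, Cct3, Cct4, Cct5, Hspe1, Ahsa2, Bag1 and Hspb3, against a background of 10.5%, and 3 lower, namely Hspa12a, Dnaja4 and Dnajb2, against a background of 5.93%. By limma 14 of the 64 had an unadjusted p under 0.05, against a background of 23.8% of all genes.

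The cytosolic and mitochondrial chaperonins shared a direction without a call by limma as reported. All 9 measured had log2 fold changes above 0 in model against sham, with a median of 0.37, and in 7 of 9 every model library lay above every sham library, against the background of 19%. Cct5, a subunit of the ring that folds actin and tubulin, averaged 15849 ± 470 normalized reads in model and 11496 ± 485 in sham (SD, n = 3 each), with a log2 fold change of 0.46 (limma adjusted p = 0.0930). Hspe1 averaged 5735 ± 1665 in model and 3336 ± 72.1 in sham (SD, n = 3 each; limma adjusted p = 0.122). Without model 3 and astaxanthin 1, limma called Cct3 (adjusted p = 0.0201) and Cct5 (adjusted p = 0.0383) higher in model than in sham. The background of genes called higher in that fit was 8.7%. Cct4 was called higher without model 4 (limma adjusted p = 0.0498). In astaxanthin against model all 9 chaperonins lay below 0, with a median of -0.26 and none called.

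The J-domain proteins leaned the other way, with 3 of 12 above 0 and a median of -0.20 in model against sham, and none was called by limma as reported. Without model 3 and astaxanthin 1, limma called Dnajb2 lower (adjusted p = 0.0232). DESeq2 called Dnaja4 (adjusted p = 0.0276) and Dnajb2 (adjusted p = 0.0440) lower. Dnaja4, a cochaperone of HSP70, averaged 3850 ± 456 normalized reads in model and 5709 ± 161 in sham (SD, n = 3 each; log2 fold change -0.57, limma adjusted p = 0.101). Of 15 other genes of the HSP70 family and its exchange factors, 10 lay above 0 and none was called by limma as reported. Hspa12a, a distant HSP70 relative, averaged 8123 ± 3032 normalized reads in model and 23095 ± 2873 in sham (SD, n = 3 each), with a log2 fold change of -1.56 ± 0.37 (SE) that narrowly missed the threshold (limma adjusted p = 0.0501). It passed with DESeq2 (adjusted p = 0.00174), with the stricter filter (limma adjusted p = 0.0471), in the fit of these 2 groups alone (limma adjusted p = 0.0376) and without model 3 and astaxanthin 1 (limma adjusted p = 0.0178). It missed with TMM scaling (limma adjusted p = 0.0525), a pseudocount of 0.1 (0.05165), no filter (0.0534) and the replicate block (0.314). edgeR did not call it (adjusted p = 0.0616). With single libraries left out it passed in 1 of 9 fits, with limma adjusted p from 0.0159 to 0.167. Hspa9 was called higher by limma without model 3 and astaxanthin 1 (adjusted p = 0.0279). Bag1, an exchange factor of HSP70, was called higher by DESeq2 (adjusted p = 0.0483) and not by limma (adjusted p = 0.127). Of 13 other HSP90 genes and cochaperones, 9 lay above 0 and none was called by limma as reported. Ahsa2, a homologue of the activator of the HSP90 ATPase, averaged 1848 ± 372 normalized reads in model and 1118 ± 117 in sham (SD, n = 3 each; limma adjusted p = 0.0817), and was called higher by DESeq2 (adjusted p = 0.0101).

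Of the 6 other small heat shock proteins measured none was called by limma as reported. Hspb3, known from muscle, was near the limit of detection, with 11.2, 32.9 and 8.2 normalized reads in model against 0, 0 and 4.1 in sham (limma adjusted p = 0.0702), and a count of 0 allows about 3.75 and 3.71 in sham 1 and 3. Hspb2, the neighbour that overlaps Cryab, had 117.3, 322.1 and 94.2 normalized reads in model against 98.8, 175.4 and 105.6 in sham, which overlapped (limma adjusted p = 0.764). Of the other heat shock factors, Hsf2 averaged 2630 ± 110 in model and 2587 ± 179 in sham (SD, n = 3 each; log2 fold change 0.03). The inducible HSP70 genes Hspa1a and Hspa1b, and Cryaa and St13, were not found by symbol and so were not analysed here. Hspa1l, another gene of the HSP70 family, had 368.7, 5770 and 756.3 normalized reads in model 1, 3 and 4. In sham 1, 3 and 5 it had 185.1, 271.8 and 193.6, and in astaxanthin 1, 2 and 3 it had 169.2, 3830 and 400.0. Its log2 fold change in model against sham was 2.45 ± 1.24 (SE) and did not pass (limma adjusted p = 0.267). In astaxanthin against sham none of the 64 was called by limma as reported, or by DESeq2 or edgeR. By limma 2 of the 64 had an unadjusted p under 0.05, against a background of 12.3%, with a median log2 fold change of 0.0028 and 32 above 0.

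The genes whose levels ran most like those of the risen genes over the 9 libraries were found by Pearson's r of log2(value + 1), as a description only, since the libraries fall into groups and share their makeup. For Hspb1 these were Lif, a cytokine (r = 0.99), Ptx3, a secreted pattern recognition protein (r = 0.99), and Tmbim1 (r = 0.99). For Hspb8 they were Jun, a subunit of AP-1 (r = 0.99), Lcp1, an actin-bundling protein of leukocytes (r = 0.99), and Nampt, an enzyme of NAD synthesis (r = 0.99). For Bag3 they were Cav2, a caveolin (r = 0.98), Maff, a small Maf transcription factor (r = 0.97), and Adamts9, a matrix protease (r = 0.97). Jun had 7899, 13884 and 15110 normalized reads in astaxanthin 1, 2 and 3 and 18229, 29247 and 20677 in model 1, 3 and 4, against 6857, 5605 and 7450 in sham 1, 3 and 5. Like Hspb8, it was therefore highest in model 3, with every astaxanthin library below every model library and above every sham library.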

How the data were processed

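RNA of 9 rat brain libraries had been sequenced. The tools named in the submitters' processing notes are STAR, StringTie, FastQC and DESeq2, with the build rn7; versions are not given in the sources used here. The values the authors deposited are signal values, that is reads normalized by library. All of them were whole multiples of 1 value per library (100.0% within a tolerance of 0.01), so reads could be recovered by division, 52268061 to 76311125 per library. The deposited tables held 22888 genes and 45893 transcripts. Floors cover counting error only.

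The 17770 genes that reached 0.5 normalized reads in 3 or more libraries were tested with limma 3.58.1 (R 4.3.3; trend and robust moderation) on log2(value + 1), all 9 libraries in 1 fit with group as the only term, two-sided, with Benjamini-Hochberg adjustment over all genes and a threshold of 0.05. A fold change is the difference between group means of log2(value + 1), a scale that understates the change of low genes. On simulated data with known changes, the fit of model against sham (17682 genes) recovered 2% of 2-fold and 80% of 8-fold changes with 1 false call, that of astaxanthin against model (17662 genes) 7% and 85% with 14, and that of astaxanthin against sham (17682 genes) 3% and 85% with 6. Alternatives were a pseudocount of 0.1, no filter, a filter at 10, TMM scaling, DESeq2 1.42.0 and edgeR 4.0.16 on the recovered reads, a fit of 2 groups, a replicate block, and fits without single libraries and without model 3 and astaxanthin 1. Named genes were the 10, up to 4 with the smallest p in model against sham from each list of other chaperones, and a few fixed neighbours and relatives. Hspa1l was added to these with its values known. The members, lists and tests were chosen with earlier results of these data known. Promoters came from the RefSeq GRCr8 table, whose coordinates differ from rn7 and were not converted. A comparison of protein sequences was planned and not made.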

Additional observations from a re-analysis of the deposited data

How the results depend on the processing

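In model against sham, the count of 3 of the 10 genes called held with TMM scaling, both other filters, the pseudocount of 0.1, edgeR, the fit of 2 groups and the fit without model 3 and astaxanthin 1, was 4 with DESeq2 and 0 with the replicate block, and ran from 1 to 3 when single libraries were left out. Of the other chaperones 2 were called as reported, 13 with DESeq2, 9 without model 3 and astaxanthin 1, 0 with the replicate block and 0 to 3 without single libraries. In astaxanthin against model, DESeq2 called 1 of the other chaperones and none of the 10 genes. In astaxanthin against sham, where 1 of the 10 was called, DESeq2 called 2, the fit without model 3 and astaxanthin 1 called 3 (and 1 other chaperone), edgeR, the fit of 2 groups and the replicate block called 0, and fits without single libraries 0 to 1.

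Over all genes, model against sham gave 848 calls as reported, 2920 with DESeq2, 2710 without model 3 and astaxanthin 1, 0 with the replicate block and 72 to 1608 without single libraries. Astaxanthin against model gave 0, 206 with DESeq2 and 0 to 3 without single libraries. Astaxanthin against sham gave 49, 75 with a pseudocount of 0.1, 791 with DESeq2, 713 without model 3 and astaxanthin 1, 0 with edgeR, 4 with the fit of 2 groups, 0 with the replicate block and 1 to 149 without single libraries.

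The signs that turned in astaxanthin against model without model 3 and astaxanthin 1 were those of Hspb1 (0.16), Cryab (0.16), Hsph1 (0.059), Dnajb1 (0.30), Bag3 (0.14) and Hsf1 (-0.11). Without single libraries Hsph1 ran from -0.97 to 0.13 and Hsf1 from -0.050 to 0.43 in that comparison. In astaxanthin against sham the replicate block gave -0.16 for Hsp90aa1, -0.28 for Hsph1, -0.29 for Dnajb1 and -0.029 for Hspd1, and leaving out single libraries gave -0.14 to 0.17, -0.18 to 0.93, -0.24 to 0.39 and -0.022 to 0.33 in the same order. In model against sham, Hsp90ab1 (-0.065) and Hspb2 (-0.22) turned below 0 without model 3 and astaxanthin 1, and without single libraries Hsp90ab1 ran from -0.065 to 0.069, Hspb2 from -0.22 to 0.66 and Hsf2 from -0.031 to 0.067. None of these values passed the test as reported, and the cause was not tested. The library numbers 1 and 3 occur in every group, but nothing says that they mark a shared day or animal: same-numbered libraries deviated from their group means with correlations of -0.12 to 0.07. With the replicate block Hspb1 in model against sham had a log2 fold change of 6.61 (limma adjusted p = 0.130), Hspb8 2.69 (0.151) and Bag3 2.59 (0.193), with fewer degrees of freedom. At 3 libraries a group, changes near 2-fold were mostly out of reach of the test.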
